A study of Homo sapiens with 12 samples.

Results

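The insulin-like growth factor (IGF) axis was followed as 10 genes, namely the ligand IGF2, the receptors IGF1R and IGF2R, and the binding proteins IGFBP1, IGFBP2, IGFBP3, IGFBP4, IGFBP5, IGFBP6 and IGFBP7. They were chosen by gene name from the 64253 genes of the count table, where each name had 1 row. The list of names was drawn up with results of these same libraries known, so the values of the siRNA and line contrasts describe the genes, and the adjusted p-values that go with them set a difference against the spread between libraries without being independent evidence. RNA was sequenced from H460, a line of non-small-cell lung cancer, and from H1299, another such line of different genotype. Each line received siRNA against NGFR (siNGFR), the p75 neurotrophin receptor, or control siRNA (siCont), and the labels name no other treatment. The H1299 siNGFR titles carry a 3 after the word knockdown, which the H460 titles do not, and it is not explained. Whether both lines received the same NGFR siRNA is not stated there. All cells grew in DMEM with fetal bovine serum, which itself brings growth factors. The 4 groups were H460 siNGFR, H460 siCont, H1299 siNGFR and H1299 siCont, with 3 libraries in each. The comparison within a line asks what loss of NGFR changed there, and the comparison of the lines asks whether the change differed between them.

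IGF2 and its relative IGF1 are secreted peptides that signal through IGF1R, a receptor tyrosine kinase that drives growth and survival through PI3K and Akt. IGF2R, also known as the cation-independent mannose-6-phosphate receptor, has no kinase domain and takes up IGF2 for breakdown in lysosomes. IGFBP1 to IGFBP6 hold the ligands with high affinity in the fluid around cells, and proteases such as PAPP-A release them by cutting the binding protein.

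The libraries held 16672164 to 36116823 counts. NGFR itself had 0 to 6 counts in every library, so the knockdown could not be measured in these data. KRT8, a keratin of simple epithelium, lay between 214 and 791 CPM (the usual count per total count of the library, here with TMM scaling over the 12 libraries) in all libraries, while the 8 lung lineage markers together reached at most 0.649 CPM. Of the 6 epithelial markers, KRT8 among them, 4 averaged over 1 CPM in both H460 groups and 3 in both H1299 groups. EPCAM and CDH1 did not, with group means of at most 0.163 and 0.0373 CPM. On the first principal component of H1299, which held 73.2% of the variance, siNGFR replicate 3 scored -13.7, beside 43.2 and 48.9 for the other siNGFR libraries and -36.5 to -16.9 for the siCont libraries. Tests that use this library were therefore also run without it, and those values stand beside the results. It was singled out on these same counts for lying nearer to the siCont libraries, so calls made without it are not independent evidence. The labels call the libraries of a group biological replicates without saying what was kept separate. The p-values set a difference against the spread between these libraries.

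The promoters of IGFBP3, IGFBP4 and IGFBP6 are shown because these genes carry the differences described further on: IGFBP3 moved with siNGFR in H1299, IGFBP4 in H460, and IGFBP6 was the one binding protein tested that was not higher in H460 than in H1299. Each runs from 250 bases before to 50 bases after the start in RefSeq (GRCh38.p14), 5′ to 3′ on the strand of the gene, and the capitals mark GGGCGG or TATANA read on either strand. In GENCODE 29, IGFBP3 and IGFBP6 begin further upstream, at 45921874 and 53097436. By that annotation the IGFBP3 window lies wholly, and the IGFBP6 window mostly, inside the gene. Positions of motifs are relative to the RefSeq start.
IGFBP3, chr7:45921223-45921522, minus strand: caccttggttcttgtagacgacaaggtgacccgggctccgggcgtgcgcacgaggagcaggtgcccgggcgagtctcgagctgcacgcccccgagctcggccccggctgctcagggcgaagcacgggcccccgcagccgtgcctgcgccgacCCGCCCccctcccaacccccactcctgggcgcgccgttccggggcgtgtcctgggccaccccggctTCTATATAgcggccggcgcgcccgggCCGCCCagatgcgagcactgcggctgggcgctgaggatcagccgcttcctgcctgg
IGFBP4, chr17:40443200-40443499, plus strand: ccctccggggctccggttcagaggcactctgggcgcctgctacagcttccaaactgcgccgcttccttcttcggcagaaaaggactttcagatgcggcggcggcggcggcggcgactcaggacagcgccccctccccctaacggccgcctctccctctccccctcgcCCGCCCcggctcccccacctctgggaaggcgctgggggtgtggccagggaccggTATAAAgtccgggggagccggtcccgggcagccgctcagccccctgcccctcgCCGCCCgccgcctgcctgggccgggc
IGFBP6, chr12:53097417-53097716, plus strand: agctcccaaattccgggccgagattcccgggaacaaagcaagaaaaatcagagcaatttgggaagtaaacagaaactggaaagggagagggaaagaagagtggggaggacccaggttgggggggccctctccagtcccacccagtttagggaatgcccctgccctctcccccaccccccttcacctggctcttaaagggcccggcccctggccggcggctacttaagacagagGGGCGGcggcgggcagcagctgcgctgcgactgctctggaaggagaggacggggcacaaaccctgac
The IGFBP3 promoter held GGGCGG at 2 places and 2 overlapping matches to TATANA, which began at -32 and -30 relative to the start. The IGFBP4 promoter held GGGCGG at 2 places and TATANA at 1, at -29. The IGFBP6 promoter held GGGCGG at 1 place and TATANA at none. Of all 35116 promoter windows of that length, 45% held GGGCGG and 19% held TATANA. Of the 10 genes, 7 matched the table of promoters, with 9 windows, because IGFBP2 had 3. These 3 windows of IGFBP2 held no TATANA, and 2 of them held GGGCGG once each. The windows of IGF1R and IGF2R held GGGCGG at 2 and at 6 places and no TATANA.

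IGFBP3 was the member whose response to siNGFR differed between the lines. The gene lies on the minus strand of chromosome 7 (45912245 to 45921874 in GENCODE 29, GRCh38), and no other annotated gene overlaps it. In H1299 it had 415, 130 and 260 counts in the siNGFR libraries, against 32, 29 and 30 in the siCont libraries, which is 10.9, 7.11 and 7.71 CPM against 1.38, 1.57 and 1.73 CPM. In bulk RNA, fewer cells with a message and less of it per cell cannot be told apart. The siNGFR libraries were all above the siCont libraries, the one that stood apart on the principal component included. The means were 8.57 ± 2.03 CPM in siNGFR and 1.56 ± 0.176 CPM in siCont (SD, n = 3 each). The fold was 5.51, a log2 fold change of 2.46 (SE 0.22, 95% interval 1.95 to 2.97), with an adjusted p of 0.0205 by edgeR's quasi-likelihood test with Benjamini-Hochberg adjustment. It had the second smallest p of 18925 genes tested.

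In H460, where its level was far higher, the same gene had less message after siNGFR, below the threshold of the test. It had 970, 1108 and 977 counts in the siNGFR libraries, against 1271, 1691 and 1632 in the siCont libraries, which is 48.5, 46.4 and 42.2 CPM against 58.7, 59.6 and 55.8 CPM. The libraries of the groups did not overlap. The log2 fold change of -0.33 (SE 0.10, 95% interval -0.55 to -0.10) had an edgeR adjusted p of 0.097 and was not called at the threshold of 0.05. The H460 response less the H1299 response was -2.82 on the log2 scale (SE 0.23), with an edgeR adjusted p of 6.59e-05, the smallest p of 21583 genes tested. IGFBP3 was 1 of the 58 genes called lower in that test, or 0.269% of those tested, and 0.158% were called higher. None of the other 7 members tested was called. Without H1299 siNGFR replicate 3 the edgeR adjusted p of IGFBP3 was 1.18e-06, IGFBP3 was still the 1 member called, and 8.66% of all genes tested were called lower and 9.31% higher.

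**Figure D1:**
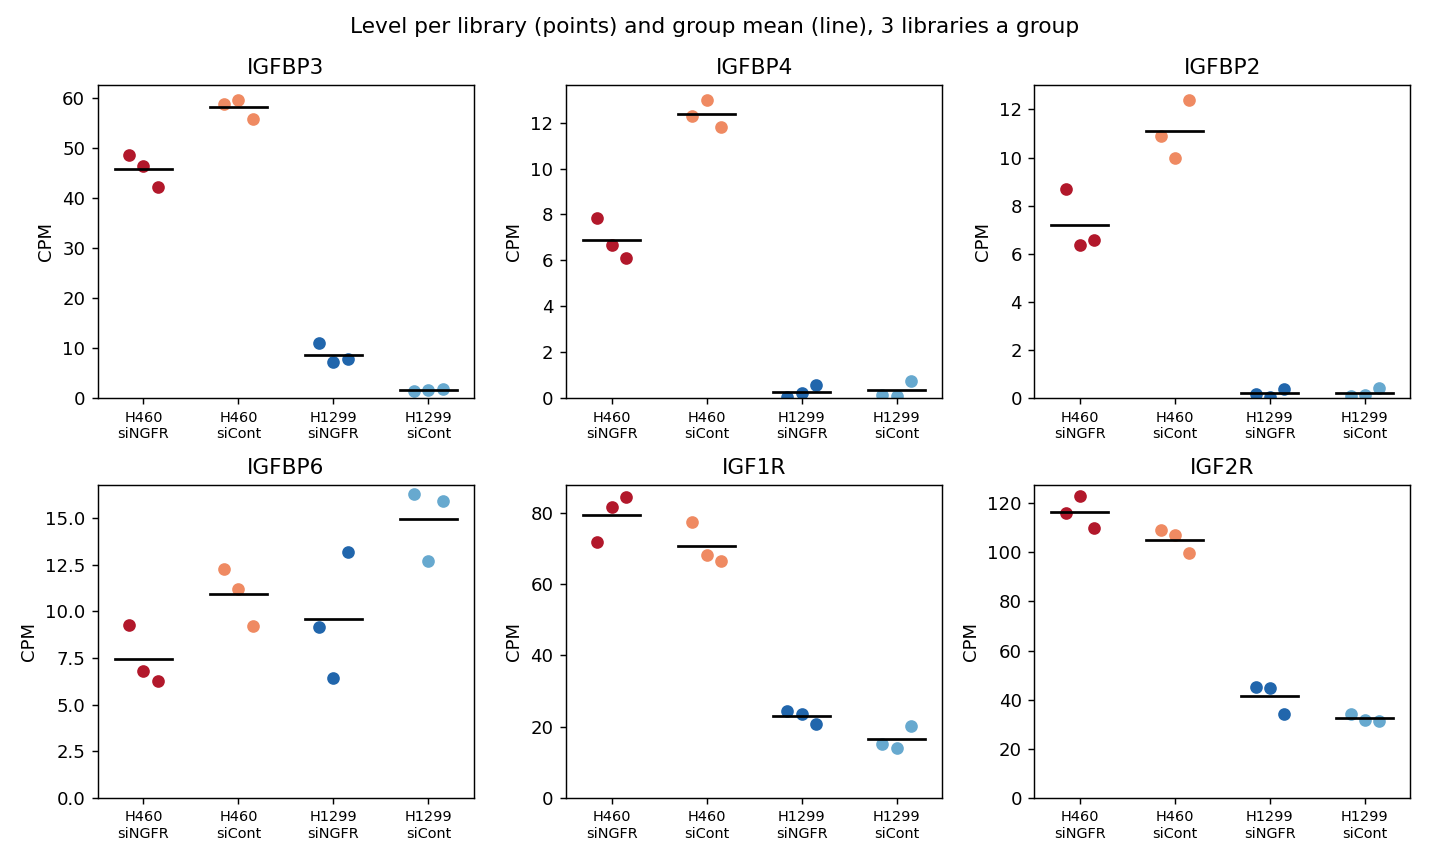
Level of 6 members in CPM (vertical axis, linear, from 0), with 1 point for each library and a line at the mean of 3 libraries, for H460 siNGFR, H460 siCont, H1299 siNGFR and H1299 siCont. The IGFBP3 points of H1299 siNGFR, at 7.11 to 10.9 CPM, all lie above the 1.38 to 1.73 CPM of H1299 siCont, and those of H460 siNGFR, at 42.2 to 48.5 CPM, all lie below the 55.8 to 59.6 CPM of H460 siCont.

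The size of the H1299 change held across the settings tried while its call did not. Over 15 alternatives the log2 fold change of IGFBP3 ran from 2.25 to 2.66, and 10 of them called it. The adjusted p was 0.0757 without siNGFR replicate 1, and, leaving out siCont replicates, 0.331 without number 1, 0.191 without number 2 and 0.131 without number 3. Without siNGFR replicate 3 the log2 fold change was 2.55 and the edgeR adjusted p 1.19e-05. In H460 the log2 fold change of IGFBP3 ran from -0.65 to -0.27 over 15 alternatives, of which 1 called it. The difference between the lines was called in all 20 of its alternatives, at -3.31 to -2.60, and was -2.985 without H1299 siNGFR replicate 3.

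**Figure D2:**
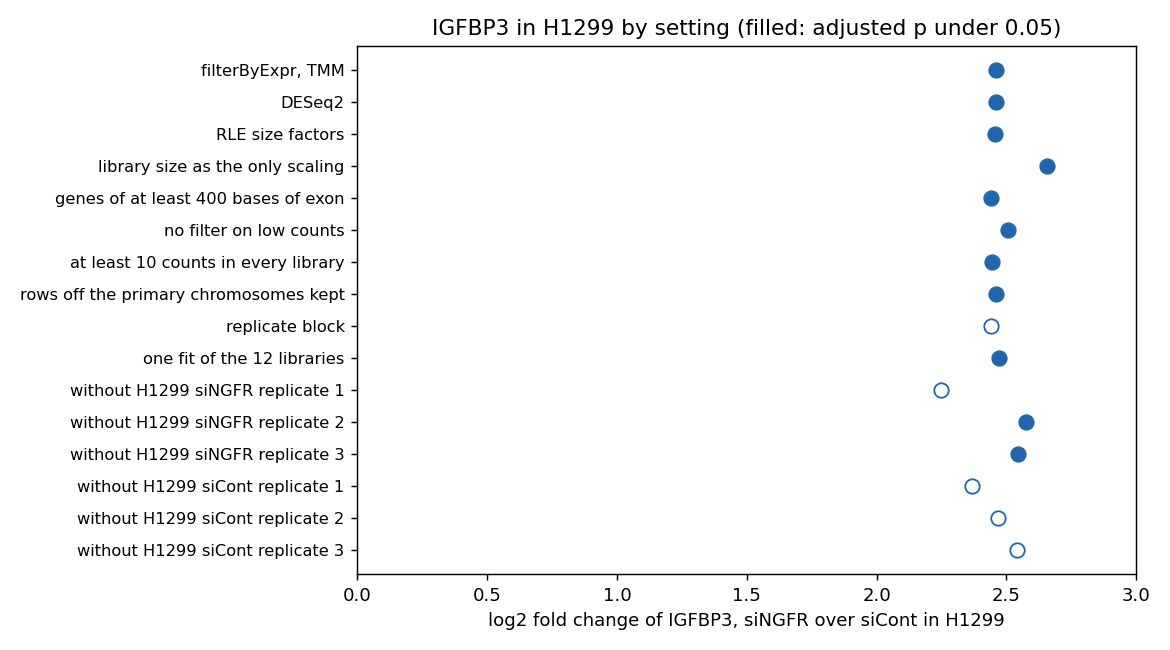
log2 fold change of IGFBP3, siNGFR over siCont in H1299 (horizontal axis, from 0), under the reported fit (top, filterByExpr and TMM) and 15 alternatives, with filled points for an adjusted p under 0.05. All points lie between 2.25 and 2.66, and 5 of the 15 alternatives are open.

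The ratio of IGFBP3 to a receptor message of the same library needs no scaling between libraries. For every 100 counts of IGF2R, IGFBP3 had 24.2, 15.9 and 22.5 counts in the H1299 siNGFR libraries, against 4.05, 4.98 and 5.51 in the siCont libraries. In H460 it had 41.9, 37.7 and 38.6 counts in the siNGFR libraries, against 54, 55.9 and 56 in the siCont libraries. In both lines the groups stayed apart on this ratio, in opposite directions. IGF2R itself was higher in all siNGFR libraries of both lines, by 0.16 in H460 and 0.35 in H1299 on the log2 scale, neither called. The ratio therefore widens the gap of IGFBP3 in H460 and narrows it in H1299.

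IGFBP4 and IGFBP2 fell in H460 after siNGFR. IGFBP4 holds ligand away from the receptor until PAPP-A cuts it. It had 7.86, 6.65 and 6.09 CPM in the siNGFR libraries, against 12.3, 13 and 11.8 CPM in the siCont libraries, from 141 to 159 counts against 267 to 370. The groups were well apart, with a fold of 0.559 and a log2 fold change of -0.84 (SE 0.13, edgeR adjusted p = 0.00387). IGFBP2, a binding protein often raised in tumours, had 8.71, 6.36 and 6.57 CPM in the siNGFR libraries, against 10.9, 9.98 and 12.4 CPM in the siCont libraries. Its groups did not overlap either, and its log2 fold change was -0.61 (SE 0.15, edgeR adjusted p = 0.0429). Of 15 alternatives, 14 called IGFBP4 and 8 called IGFBP2. A fit of the 12 libraries together called neither, with adjusted p = 0.214 for IGFBP4 and 0.236 for IGFBP2, and IGFBP2 also lost its call without siNGFR replicate 5 or 6 or without any 1 of the siCont libraries.

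Across H460 as a whole, 8 members were tested, of which 2 were called lower, where 2.5% of all genes tested were, and 0 were called higher, where 1.81% of all genes were. Groups did not overlap for 4 of the 8, as for 23.7% of all genes tested. The median log2 fold change of the 8 was -0.43, beside 0.006 over all genes. IGF1 and the other ligand-side genes INS and IGFALS were too low to test. In H460 the share of counts on genes with under 400 bases of exon was 50.5% to 55.6% in the siNGFR libraries and 43.1% to 48.2% in the siCont libraries. Its part in the results was not tested beyond leaving those genes out, which kept IGFBP4 (-0.84) and IGFBP2 (-0.61) called. With library size as the only scaling, the median of all genes in H460 was -0.32, and the 4 binding proteins IGFBP3, IGFBP2, IGFBP4 and IGFBP6 were called lower, as were 21.2% of all genes tested.

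**Figure D3:**
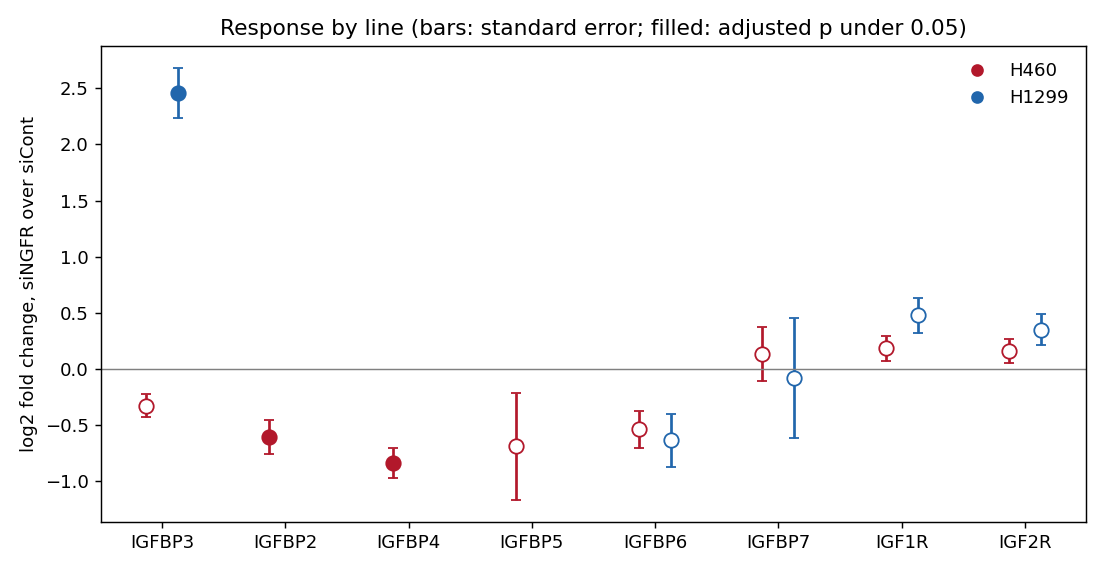
log2 fold change of siNGFR over siCont (vertical axis) in H460 and H1299 for the members tested, with bars of 1 standard error and filled points for an adjusted p under 0.05. IGFBP3 stands at 2.46 in H1299 and -0.33 in H460, and the filled points of H460 are IGFBP2 at -0.61 and IGFBP4 at -0.84, while IGFBP7, IGF1R and IGF2R of H460 stand at 0.13, 0.18 and 0.16 and turn negative with library size as the only scaling.

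IGFBP6, which prefers IGF2 over IGF1, had a mean of 7.45 ± 1.59 CPM in H460 siNGFR and 10.9 ± 1.56 CPM in H460 siCont. In H1299 it averaged 9.59 ± 3.38 CPM in siNGFR and 15 ± 1.98 CPM in siCont (SD, n = 3 each). The highest siNGFR library overlapped the siCont libraries in both lines, at 9.26 CPM over a siCont low of 9.23 CPM in H460 and at 13.2 CPM over a siCont low of 12.7 CPM in H1299. The log2 fold changes were -0.54 (SE 0.16, edgeR adjusted p = 0.0862) in H460 and -0.64 (SE 0.24, adjusted p = 0.261) in H1299, and neither was called. In H460, 4 of 15 alternatives called it, among them the fit without siNGFR replicate 4 (-0.70, adjusted p = 0.0108), the library at 9.26 CPM. The 13.2 CPM came from the siNGFR replicate 3 that stood apart, and without it the H1299 value was -0.92 with an edgeR adjusted p of 0.0021. The difference between the lines was 0.08 (SE 0.31, adjusted p = 0.937), and 0.29 without that library (adjusted p = 0.481).

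IGFBP7, which binds IGFs weakly and is secreted by many cell types, stood at 2.17 ± 0.625 CPM in H460 siNGFR and 2.01 ± 0.0698 CPM in H460 siCont. It stood at 0.421 ± 0.0873 CPM in H1299 siNGFR and 0.443 ± 0.33 CPM in H1299 siCont. The groups overlapped in both lines, and the log2 fold changes, 0.13 in H460 and -0.08 in H1299, had 95% intervals of -0.39 to 0.66 and -1.29 to 1.14. In H1299 it was 0.09 without siNGFR replicate 3, and was not called either way. IGFBP7 shares its locus with POLR2B on the opposite strand, which had 8822 counts in the 12 libraries against 372 for IGFBP7, and since no source used here gives the strand setting of the counting, reads of this pair may not be told apart.

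Both receptors were the most heavily counted members, with 13911 counts of IGF1R and 21692 of IGF2R in the 12 libraries. In H460, IGF1R had 71.9, 81.6 and 84.4 CPM in the siNGFR libraries, against 77.4, 68.1 and 66.6 CPM in the siCont libraries, which overlap. IGF2R had 116, 123 and 110 CPM in the siNGFR libraries, against 109, 107 and 99.6 CPM in the siCont libraries, which do not. Neither was called, with log2 fold changes of 0.18 (SE 0.11) for IGF1R and 0.16 (SE 0.11) for IGF2R and edgeR adjusted p-values of 0.409 and 0.45.

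In H1299, IGF1R had 24.3, 23.6 and 20.8 CPM in the siNGFR libraries, against 15.2, 13.9 and 20.1 CPM in the siCont libraries. IGF2R had 45, 44.6 and 34.3 CPM in the siNGFR libraries, against 34.1, 31.5 and 31.4 CPM in the siCont libraries. For both receptors the siNGFR libraries lay above the siCont libraries, with siNGFR replicate 3 the closest to them. The log2 fold changes, 0.48 (SE 0.16) for IGF1R and 0.35 (SE 0.14) for IGF2R, were not called (edgeR adjusted p = 0.261 and 0.265). Without siNGFR replicate 3 they were 0.54 and 0.47, with edgeR adjusted p-values of 0.0181 and 0.00747.

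In H1299, 5 members were tested, of which 1, IGFBP3, was called higher, where 0.0106% of all genes tested were, and 0 were called lower, where likewise 0.0106% were. Only 2 genes were called in each direction, while 3404 genes had an unadjusted p under 0.05 and DESeq2 called 73 higher and 88 lower. Groups did not overlap for 3 of the 5, as for 20.8% of all genes. Without siNGFR replicate 3, edgeR called 3 members higher (IGFBP3, IGF1R and IGF2R), as 11.3% of the 19434 genes then tested, and 1 lower (IGFBP6), as 16.6% were. In siNGFR replicates 1 to 3 the share of counts on genes with under 400 bases of exon was 41.7%, 47.2% and 50.6%. In the siCont replicates it was 48.7%, 53.7% and 51.5%, a range that held siNGFR replicate 3 alone of the siNGFR libraries. Its part was not tested beyond leaving those genes out, which kept IGFBP3 called (2.44, edgeR adjusted p = 0.0101). The binding proteins below the filter in H1299 were IGFBP1, IGFBP2, IGFBP4 and IGFBP5. IGFBP2 had 21 counts in the 3 siNGFR libraries together and 11 in the siCont libraries, a ratio of 1.25 per scaled count with a 95% counting interval of 0.576 to 2.87. For IGFBP4 the sums were 25 and 18, and the ratio was 0.909 (0.476 to 1.77). Both intervals include the folds of H460 (0.656 and 0.559) as well as no change, so these counts do not tell a like fall in H1299 from none. They cover counting error only.

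The libraries numbered 3 held most of those few counts. IGFBP4 had 19 counts in siNGFR replicate 3 and 13 in siCont replicate 3, and 2 to 4 counts in each of the other H1299 libraries. IGFBP2 had 13 and 7 counts in the libraries numbered 3, and 1 to 7 in the others. KRT19, a keratin at 155 to 211 CPM in H460, had 2 counts in each of these 2 libraries and 0 to 2 in the other H1299 libraries.

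The lines themselves differed far more than the siRNA groups. Among siNGFR libraries 27.5% of all genes tested were called higher in H460 than in H1299 and 28.6% lower, and among siCont libraries 31.9% and 31.3%. Of the 10 members, 7 passed the filter under siNGFR, where 6 were called higher and 0 lower, and 8 under siCont, where 7 were called higher and 1 lower. Libraries of the lines did not overlap for 6 of the 7 under siNGFR, beside 63.1% of all genes, and for 8 of the 8 under siCont, beside 67.3%. IGFBP2 and IGFBP4, and IGFBP5 under siCont, passed through H460 alone, where they are high, and so had to differ. IGFBP7 also passed on its H460 libraries, with 8 to 19 counts in the H1299 siNGFR libraries and 3 to 15 in H1299 siCont. This leaves the counts of members called as a description only. With at least 10 counts asked of every library, 4 members could be tested (IGFBP3, IGFBP6, IGF1R and IGF2R). Of these, 3 were called higher in H460 under each siRNA, where 26.1% of all genes then tested were under siNGFR and 30.7% under siCont. IGFBP6 was called lower under siCont, where 30.7% of all genes were. The many differences in genotype between the lines cannot be told apart here, since each genotype is 1 line.

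IGFBP2, IGFBP4 and IGFBP3 were among the members far higher in H460. Under siCont, IGFBP2 was 57.1-fold higher in H460 (log2 fold change 5.84, SE 0.31), IGFBP4 39.4-fold (5.30, SE 0.34) and IGFBP3 37.1-fold (5.21, SE 0.14). IGFBP2 and IGFBP4 passed the filter through H460 alone, so their folds under either siRNA are a description only. Without H1299 siCont replicate 3, which held most of their few H1299 counts, the log2 fold changes were 6.76 for IGFBP2 and 6.61 for IGFBP4. Under siNGFR, IGFBP2 was 29.8-fold higher (4.90, SE 0.38) and IGFBP4 23.4-fold (4.55, SE 0.48), and without H1299 siNGFR replicate 3 these log2 fold changes were 5.56 and 5.85. The gap of IGFBP3 narrowed to 5.1-fold under siNGFR (log2 fold change 2.35, SE 0.19, edgeR adjusted p = 3.52e-06), and was 2.24 without that library. That narrowing is the difference between the lines tested above for IGFBP3, and for IGFBP2 and IGFBP4 the same difference, -0.91 (SE 0.66) and -0.71 (SE 0.79), was not called (edgeR adjusted p = 0.503 and 0.678). These 2 differences moved with the libraries numbered 3. They were, without H1299 siNGFR replicate 3, -0.30 for IGFBP2 and 0.54 for IGFBP4, and without H1299 siCont replicate 3 -1.90 and -2.10, none of them called.

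**Figure D4:**
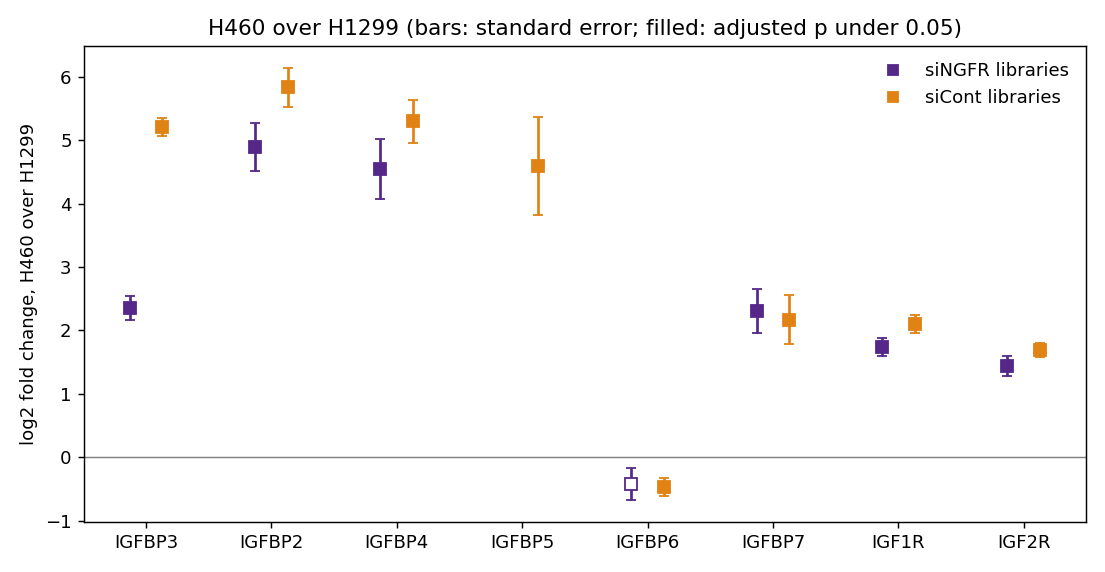
log2 fold change of H460 over H1299 (vertical axis) for the members tested, among siNGFR libraries and among siCont libraries, with bars of 1 standard error and filled points for an adjusted p under 0.05. IGFBP3 stands at 2.35 among siNGFR libraries and 5.21 among siCont libraries, and IGFBP6 is the member below 0, at -0.43 and -0.47.

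Both receptors and IGFBP7 were higher in H460 as well. IGF1R was 3.34-fold higher under siNGFR and 4.29-fold under siCont, IGF2R 2.71-fold and 3.22-fold, and IGFBP7 4.95-fold and 4.49-fold. The IGFBP7 gap under siCont was 2.17 on the log2 scale, and 2.84 without H1299 siCont replicate 2. Under siNGFR the gaps were 1.74 for IGF1R, 1.44 for IGF2R and 2.31 for IGFBP7 on the log2 scale. Without H1299 siNGFR replicate 3 they were 1.66, 1.30 and 2.12, all of them called. IGFBP7 entered these tests through its H460 libraries, so its gaps are a description only. IGFBP6 was below 0 under both siRNAs, with a log2 fold change of -0.43 (SE 0.25, edgeR adjusted p = 0.172) under siNGFR and -0.47 (SE 0.14, adjusted p = 0.00971) under siCont. Without H1299 siNGFR replicate 3, which held its highest siNGFR value in H1299 (13.2 CPM), the value under siNGFR was -0.17 (adjusted p = 0.49). Of 14 alternatives, 11 called IGFBP6 under siCont and 1 under siNGFR.

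Levels of different genes were compared per kilobase of exon (CPM per kb). The length was the deposited sum of exon lengths of each gene, which can differ from the length of the transcript present. The order of genes and their shares depend on it. In H460 siNGFR the order was IGFBP3 at 11.9 and IGF2R at 11.7, which overlapped, then IGF1R at 5.9 and IGFBP6 at 5.82, which also overlapped. Next came IGFBP4 at 3.12, IGFBP2 at 1.51 and IGFBP7 at 1.12. Here IGFBP2, at 1.33 to 1.83, and IGFBP7, at 0.751 to 1.34, overlapped as well. In H460 siCont it was IGFBP3 at 15.1, IGF2R at 10.5 and IGFBP6 at 8.54, each apart from the next, IGFBP4 at 5.64 and IGF1R at 5.26, which overlapped, IGFBP2 at 2.32 and IGFBP7 at 1.04. In H1299 siNGFR, IGFBP6 led at 7.5, before IGF2R at 4.15, IGFBP3 at 2.23 and IGF1R at 1.71, with no overlap between these neighbours. In H1299 siCont, IGFBP6 led at 11.7, before IGF2R at 3.25, IGF1R at 1.22 and IGFBP3 at 0.406, again without overlap, while IGFBP3 and the next gene, IGFBP7 at 0.229, overlapped. IGFBP3 thus stood above IGF1R in H1299 siNGFR and below it in H1299 siCont.

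The make-up of the binding protein messages followed the same values. IGFBP3 took 48.4%, 52% and 51.3% of the summed CPM per kb of IGFBP1 to IGFBP7 in the H460 siNGFR libraries, against 45.1%, 46.3% and 47% in the siCont libraries. IGFBP4 took 13% to 13.7% in H460 siNGFR and 16.6% to 17.7% in H460 siCont. In H1299, IGFBP3 took 27.4%, 25.5% and 15.6% in the siNGFR libraries, against 2.68%, 3.76% and 3.36% in the siCont libraries. IGFBP6 made up most of the rest, at 69.4% to 80.3% in H1299 siNGFR and 91.7% to 95.4% in H1299 siCont. A share falls where another member rises, so these values are not separate results.

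**Figure D5:**
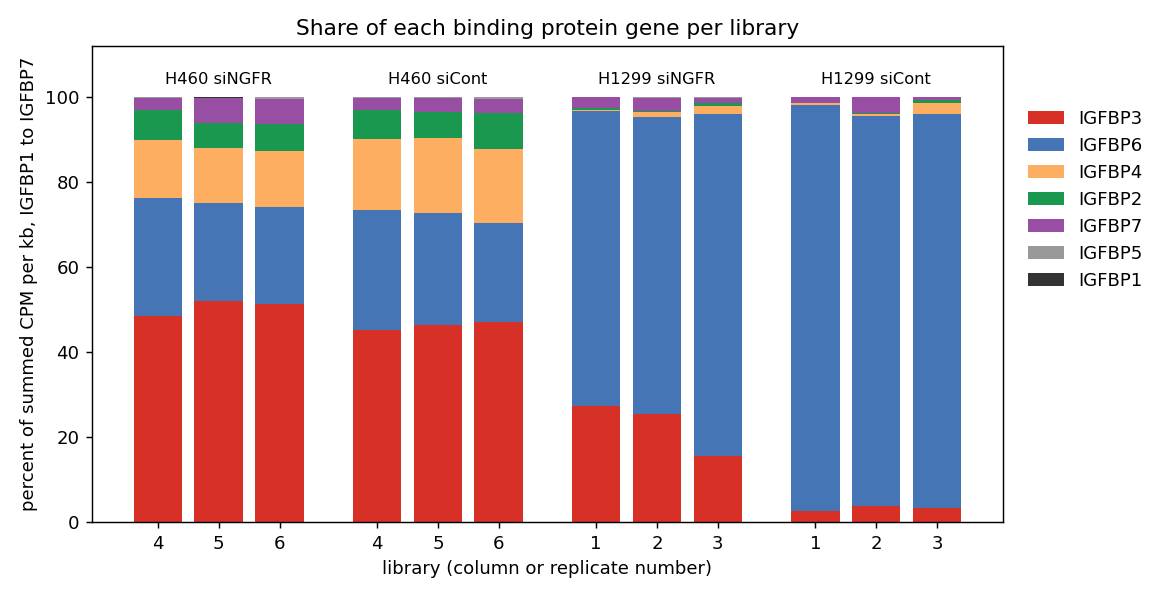
Share of each binding protein gene in the summed CPM per kb of IGFBP1 to IGFBP7 (vertical axis, percent), 1 bar for each library. IGFBP3 takes 15.6% to 27.4% in H1299 siNGFR and 2.68% to 3.76% in H1299 siCont, where IGFBP6 takes 91.7% to 95.4%.

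IGFBP1, IGF2 and IGFBP5 were at or near the limit of detection. IGFBP1, a binding protein made mainly by the liver, had 2 counts in 1 H460 siNGFR library, 2 in 1 H460 siCont library and 0 in the other 10 libraries. A count of 0 allows up to 3 counts, or 0.0787 to 0.173 CPM per library in H1299. IGF2 had 2 to 7 counts in the H460 siNGFR libraries and 5 to 16 in the H460 siCont libraries, and 0 to 2 in H1299 siNGFR and 1 to 3 in H1299 siCont. Its ratio of siNGFR to siCont in H460 was 0.53 with a 95% counting interval of 0.253 to 1.05. The annotation gives IGF2 further genes on its own strand, among them INS-IGF2, which had 6 counts, so its few reads may be split. IGFBP5, which binds to extracellular matrix, had 3 to 13 counts in H460 siNGFR and 9 to 17 in H460 siCont, a log2 fold change of -0.69 (SE 0.48, edgeR adjusted p = 0.478). In H1299 it had 5 counts in the siNGFR libraries together and 1 in the siCont libraries. Over the siCont libraries H460 had 43 counts of IGFBP5 and H1299 had 1, a ratio of 32 per scaled count with a counting interval of 5.44 to 1290. Over the siNGFR libraries the counts were 22 in H460 and 5 in H1299, a ratio of 5.92 (2.19 to 20). The counting intervals cover counting error only.

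Of the 47 other genes of the pathway, in 8 lists, 36 were tested in H460, where 3 were called higher and 0 lower, beside 1.81% and 2.5% of all genes tested. In H1299, 34 were tested and none was called by edgeR, beside 0.0106% of all genes in each direction. There 8 of the 34 were called higher and 2 lower without siNGFR replicate 3, beside 11.3% and 16.6% of all genes. All 3 genes called in H460 belonged to the list of 5 proteases that cut binding proteins and their inhibitors. PAPPA2, a protease of IGFBP3 and IGFBP5, had 13.3, 15.3 and 14.8 CPM in H460 siNGFR, against 9.33, 7.68 and 7.07 CPM in H460 siCont (log2 fold change 0.87, SE 0.13, edgeR adjusted p = 0.0031). STC2, an inhibitor of these proteases, had 48.5, 46.8 and 53.1 CPM in H460 siNGFR, against 30.3, 31.8 and 31.9 CPM in H460 siCont (0.68, SE 0.10, edgeR adjusted p = 0.0037). PAPPA, the gene of PAPP-A, is named here after its values were seen, with 23, 22 and 20.4 CPM in H460 siNGFR, against 16.3, 13.1 and 13.6 CPM in H460 siCont (0.62, SE 0.12, adjusted p = 0.0108). The other genes of that list were not called in H460, HTRA1 at -0.56 and STC1 at 0.16. A fit of the 12 libraries together called neither PAPPA2 (adjusted p = 0.0819) nor PAPPA (0.136), and library size as the only scaling called neither STC2 (0.078) nor PAPPA (0.164). PAPPA also lost its call without H460 siNGFR replicate 5 and without H460 siCont replicate 5. Of 15 alternatives, 14 called PAPPA2, 14 STC2 and 11 PAPPA.

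The response of STC2 also differed between the lines, at 0.83 (SE 0.16, edgeR adjusted p = 0.0405), since it had 6.93, 7.44 and 7.12 CPM in H1299 siNGFR, against 7.22, 7.89 and 9.13 CPM in H1299 siCont. It was called in 5 of 20 alternatives, at 0.34 to 0.86, and was 0.75 without H1299 siNGFR replicate 3 (adjusted p = 0.00631). It was the 1 gene of the 38 tested from these lists that was called in that test, where 0.158% of all genes were called higher. Without that library 3 of the 38 were called higher and 5 lower, beside 9.31% and 8.66% of all genes. With all libraries in, the 7 lists other than the proteases held no called gene in either line's siRNA comparison, among them the 14 genes of PI3K, Akt and FOXO, all tested, with median log2 fold changes of -0.03 in H460 and 0.06 in H1299. The list of IGF1, INS and IGFALS and that of transcripts beside or overlapping IGF2 and IGF2R had no gene tested there, so none could be called.

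Between the lines the pathway lists split both ways. Among siNGFR libraries, 14 of 38 genes were called higher in H460 and 16 lower, beside 27.5% and 28.6% of all genes tested, and among siCont libraries 16 and 16 of 38, beside 31.9% and 31.3%. The siNGFR counts were 14 and 20 without H1299 siNGFR replicate 3, beside 32.7% and 31.8%. Genes that passed the filter through 1 line alone, where they are high, had to differ, which leaves these counts as a description only. Among them were IGF2BP2, with 1 to 6 counts in the H460 libraries, and the adaptor GRB10, with 0 to 2 in the H1299 libraries. PAPPA, with 8 to 21 counts in H1299 siCont, passed through H460 under siCont. IRS2, an adaptor of IGF1R, was higher in H460 by 5.24 on the log2 scale under siNGFR (SE 0.22) and 4.89 under siCont (SE 0.15). PAPPA was 32.1-fold higher under siNGFR and 20.1-fold higher under siCont. Without H1299 siNGFR replicate 3, IRS2 was at 5.43 and PAPPA 37.3-fold higher under siNGFR. All 3 binders of the IGF2 message were lower in H460, among them IGF2BP1, at -6.67 (SE 0.24) under siNGFR and -6.04 (SE 0.19) under siCont, and IGF2BP2, at -7.17 (SE 0.30) and -6.74 (SE 0.22). Without that library the values under siNGFR were -6.79 for IGF2BP1 and -7.22 for IGF2BP2.

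Genes with the most similar pattern to a member were found over the 12 libraries among the 10986 protein-coding genes that averaged at least 50 counts, by the root mean square difference of centred log2(CPM + 1) values. The closest to IGFBP3 were RHOB (0.37) and ALPK2 (0.40), on a pattern of IGFBP3 that spanned 4.67. IGFBP2 was the closest gene to IGFBP4 (0.17), which spanned 3.74. The closest to IGFBP2 were ASB9 (0.13) and OSBPL5 (0.13), to IGFBP6 ARL6IP4 (0.13), to IGF1R KIAA1549 (0.11) and to IGF2R SND1 (0.09) and MYC (0.09). These points are 12 libraries of only 2 lines and 4 groups.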

How the data were processed

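Total RNA depleted of ribosomal RNA was sequenced on an Ion Torrent instrument, and the authors deposited the counts of reads for each gene and library as a single table. STAR, Bowtie2 and the build hg38 are named in the submitters' processing notes. For the counting, program, annotation and strandedness were not given in the sources used here. The 24 further columns of values per sample (RPKM and repeats of the counts) and the authors' own comparison columns (fold changes and probabilities of differential expression) were not used. H460 columns carry numbers that the labels do not, so they were assigned to a group only.

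Genes on primary chromosomes were filtered by filterByExpr, scaled by TMM and tested with edgeR 4.0.16 in R 4.3.3 (quasi-likelihood test, two-sided, Benjamini-Hochberg over all genes tested, threshold 0.05). Standard errors came from the F statistic. Within each line, and between lines under each siRNA, 6 libraries were fitted, and all 12 for the difference between lines. DESeq2 1.42.0, other scalings and filters, a replicate block and leaving out each library were the alternatives. Totals of 16672164 to 36116823 counts set a floor of 3 counts per library at 0.0787 to 0.173 CPM. The scripts were tested on simulated data. Some genotype details, a marker gene and a promoter motif are not reported here. All members were named, and of each other list at most 2 called genes per comparison with a mean of at least 50 counts. Members and lists were chosen with earlier results of these data known. Column numbers gave no clear pairing of the libraries: the correlation of deviations between same-numbered libraries was -0.04 to 0.10 in H460 and -0.26 to 0.38 in H1299. Between H1299 libraries of different numbers it was -0.443 to 0.325.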

Additional observations from a re-analysis of the deposited data

Results flagged for a closer look

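A pair of genes was picked out because the response to siNGFR differed between the lines in the test of that difference. IGFBP3 differed by -2.82 on the log2 scale (H460 minus H1299), and all 3 siNGFR libraries lay above the siCont libraries in H1299 and below them in H460. STC2, which was called in 5 of 20 alternatives, differed by 0.83.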

How the results depend on the processing

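Of 887 values of single genes under the alternatives, 819 kept both direction and call, 37 lost their call, 11 gained one and 20 changed sign. Of the 819, 60 came from keeping rows off the primary chromosomes, which left the numbers of genes tested and called as they were. That setting is also 1 of the alternatives counted for each gene, and adds no check. In H460, 2 members were called, against 4 with library size as the only scaling, 3 with genes of at least 400 bases of exon and 3 with no filter on low counts (IGFBP6 gained in each), 1 with the replicate block, 0 in one fit of the 12 libraries and 1 to 3 when a library was left out. In H1299, 1 was called, against 2 with no filter on low counts, 0 with the replicate block (IGFBP3 at 2.44, adjusted p = 0.142) and 0 to 4 when a library was left out. With at least 10 counts in every library, fewer members could be tested, and 4 were called between the lines under siCont and 3 under siNGFR, in place of 8 and 6. In the difference between lines, library size as the only scaling called 2 members (IGFBP3 and IGF1R), and all other alternatives 1. None of the values that changed sign had been called. In H460, library size as the only scaling gave -0.21 for IGFBP7, -0.15 for IGF1R and -0.17 for IGF2R, and IGFBP7 ran from -0.001 to 0.36 with a library left out. In H1299, IGFBP7 was 0.11 with library size as the only scaling, 0.078 with the replicate block and -0.43 to 0.64 with a library left out. In the difference between lines, IGFBP6 was -0.37 with library size as the only scaling, -0.085 with no filter and -0.13 to 0.29 with a library left out. There IGFBP7 was -0.32 with library size as the only scaling and -0.57 to 0.46 with a library left out, and IGFBP4 -2.10 to 0.54. The cause was not tested.

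The labels do not say whether libraries of the same number were prepared together, and what lies behind a call lost in the paired fit was not tested. No paired analysis was possible between lines, because the H460 numbers match no label. A fit with 1 library left out tests 2 against 3 libraries. Members under the filter (IGFBP1 and IGF2 in both lines, and IGFBP2, IGFBP4 and IGFBP5 in H1299) are limited by depth.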
